A study of Homo sapiens with 2 samples.

Results

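Cytosolic ribosomal protein genes encode the proteins of the small and the large subunit of the ribosome that translates nuclear mRNAs. In the table of ATF1 peaks from HCT116 cells, 52 of 15064 listed peaks carried the name of such a gene. Members were taken by gene symbol alone, as names of the form RPL or RPS with a number, the stalk genes RPLP0, RPLP1 and RPLP2, RPSA and the expressed paralogs, leaving out pseudogenes and the RPS6K kinases. The peak table holds 15064 gene names, each with 1 peak. All 52 names are those of ribosomal protein genes in the RefSeq gene table. The large subunit accounted for 32 members and the small subunit for 20, and 5 of the 52 were paralogs (RPL22L1, RPL26L1, RPL39L, RPL3L and RPS27L).

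The study used HCT116, an established human colon carcinoma line, given ATF1 with a 3xFlag tag and precipitated with an antibody against the tag. The series holds 2 samples, 1 ATF1 ChIP library and 1 input DNA library of the same line, and the values here are those of the ChIP library. No replicate exists, so nothing below is a test between conditions, and peaks of 1 library are not replicates. How strongly the tagged protein was expressed relative to native ATF1 is not stated in the labels. For each peak the table gives tags (reads counted in the peak), a fold enrichment over a background that is not specified, a score and a class relative to the gene. All 4 are the authors' own values, used here only to describe and rank peaks within the list.

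ATF1 is a basic leucine zipper factor of the CREB family, which binds the cAMP response element (CRE), a palindrome whose shorter core also occurs alone in promoters. Ribosomal protein genes are transcribed at high and coordinated rates in growing cells. Their transcripts start at a C within a run of pyrimidines, the terminal oligopyrimidine tract, through which their translation is controlled by mTOR. Their promoters are known for sites of ETS factors and YY1, and for a lack of the classical TATA box.

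The promoters of 6 members from both ends of the range of fold enrichment are shown. Those of RPL22L1, RPS3A and RPL18 belong to the 3 strongest peaks with a CRE core in the promoter. Those of RPL36, RPS27L and RPLP1 belong to the 3 weakest at a gene end that have a promoter in the sequence table. Each runs 5′ to 3′ from 250 bases before to 30 bases into the transcript (RefSeq sequences, GRCh38.p14, the same assembly as hg38). Capitals mark the CRE core TGACG on either strand, and where it is complete the CRE palindrome TGACGTCA.
RPL22L1, chr3:170870166-170870445, minus strand: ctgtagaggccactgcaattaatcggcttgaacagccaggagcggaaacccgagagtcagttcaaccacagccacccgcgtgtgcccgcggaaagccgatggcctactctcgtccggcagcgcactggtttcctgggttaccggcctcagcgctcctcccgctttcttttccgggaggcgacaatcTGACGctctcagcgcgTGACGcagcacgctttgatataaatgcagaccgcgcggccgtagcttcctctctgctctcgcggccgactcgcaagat
RPS3A, chr4:151099378-151099657, plus strand: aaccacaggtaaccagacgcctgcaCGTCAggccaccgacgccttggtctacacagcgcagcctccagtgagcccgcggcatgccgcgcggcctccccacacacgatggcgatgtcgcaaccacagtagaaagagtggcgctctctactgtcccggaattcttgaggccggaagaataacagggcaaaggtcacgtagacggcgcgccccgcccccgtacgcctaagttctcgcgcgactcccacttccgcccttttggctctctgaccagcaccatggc
RPL18, chr19:48619149-48619428, minus strand: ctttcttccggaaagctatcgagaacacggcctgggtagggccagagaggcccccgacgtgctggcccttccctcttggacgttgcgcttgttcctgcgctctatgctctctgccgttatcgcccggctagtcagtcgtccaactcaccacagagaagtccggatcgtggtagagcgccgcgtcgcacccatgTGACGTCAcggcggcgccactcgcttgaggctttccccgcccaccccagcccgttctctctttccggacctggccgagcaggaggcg
RPL36, chr19:5690045-5690324, plus strand: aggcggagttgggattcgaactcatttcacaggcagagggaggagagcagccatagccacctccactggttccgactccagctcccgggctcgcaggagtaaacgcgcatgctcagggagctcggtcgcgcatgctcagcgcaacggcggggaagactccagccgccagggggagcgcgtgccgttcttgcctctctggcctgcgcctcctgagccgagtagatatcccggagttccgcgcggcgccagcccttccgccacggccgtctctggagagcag
RPS27L, chr15:63157448-63157727, minus strand: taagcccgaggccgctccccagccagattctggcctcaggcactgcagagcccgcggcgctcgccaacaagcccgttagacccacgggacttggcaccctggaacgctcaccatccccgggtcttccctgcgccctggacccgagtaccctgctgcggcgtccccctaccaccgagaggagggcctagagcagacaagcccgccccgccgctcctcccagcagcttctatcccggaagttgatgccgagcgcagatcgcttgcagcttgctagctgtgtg
RPLP1, chr15:69452568-69452847, plus strand: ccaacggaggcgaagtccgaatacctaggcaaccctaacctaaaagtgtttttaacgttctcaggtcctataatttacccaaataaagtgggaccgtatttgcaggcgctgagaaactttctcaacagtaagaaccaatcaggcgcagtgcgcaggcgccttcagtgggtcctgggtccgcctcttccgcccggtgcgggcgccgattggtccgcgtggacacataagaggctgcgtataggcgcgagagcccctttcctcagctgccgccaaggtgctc

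RPL22L1, the paralog of RPL22, has 2 cores, centred at positions -62 and -46, counted from 0 at the transcript start with negative values upstream. In RPS3A, a small subunit protein gene, the single core lies at -223 on the opposite strand. RPL18, a large subunit gene, carries the full palindrome, read as overlapping cores at -55 and -52, and its peak summit also lay at -55. The promoters of RPL36, RPS27L and RPLP1 hold no core in the bases shown. The summits of RPS27L and RPLP1 lay 210 and 299 bp past the start, beyond these bases.

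Peaks named for ribosomal protein genes ranged from 3.50-fold at RPL3L to 34.99-fold at RPL22L1. Their median fold enrichment was 9.27 (quartiles 6.20 and 14.03; interval of the median 7.38 to 10.67), against 6.97 (quartiles 5.20 and 9.76) for all listed peaks. The median member stood above 71.9% of listed peaks, and 35 of the 52 were at or above the median of the list. Among the top 20.0% of listed peaks, from 10.78-fold upwards, were 18 members (34.6%, exact 95% interval 22.0 to 49.1%). Against peaks in like positions the difference was smaller. The median was 7.43-fold for all listed peaks at a gene end, and the median member stood above 64.1% of these. For summits within 1 kb of a start, the medians were 9.24-fold in 39 members and 7.73-fold in all such peaks. By tags the members had a median of 159.5, against 162 for all listed peaks, and the median member ranked above 49.5% of the list. Against peaks in like positions their tags were fewer: all listed peaks at a gene end had a median of 226 tags, and for summits within 1 kb of a start the medians were 158 tags in 39 members and 240 tags in all such peaks. Members' peaks had a median length of 1481 bp, against 1551 bp.

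**Figure D1:**
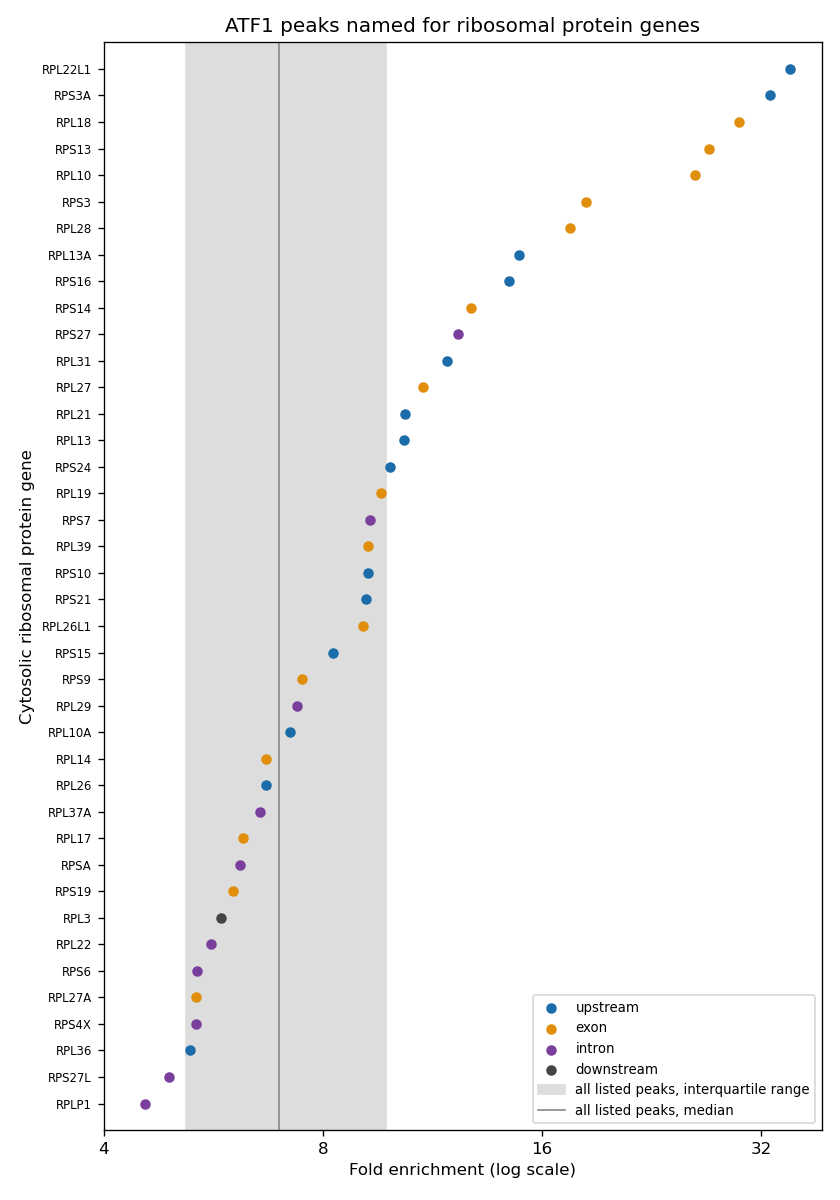
Fold enrichment (log scale) of the 40 of 52 peaks named for cytosolic ribosomal protein genes whose gene has an entry in the promoter table, coloured by the authors' class, with the median and interquartile range of all listed peaks as a line and a band. RPL22L1, RPS3A, RPL18, RPS13 and RPL10 stand at 25.95-fold or higher, and RPLP1 is the lowest of those shown, at 4.56-fold.

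The 5 strongest members had at least 25.95-fold enrichment. RPL22L1 had 34.99-fold enrichment with 134 tags (Poisson interval 112.3 to 158.7) in a peak upstream of the gene (chr3:170869867-170871083). RPS3A had 32.89-fold and 296 tags in an upstream peak (chr4:151098544-151100361). RPL18 had 29.84-fold and 619 tags (chr19:48618442-48620051, exonic). Its score of 3100 was above that of 99.6% of listed peaks, although 53 listed peaks share exactly this score.

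RPS13, of the small subunit, had 27.12-fold and 182 tags in an exonic peak (chr11:17077035-17078658). RPL10, a late-joining large subunit protein that lies close to the catalytic centre, had 25.95-fold and 255 tags (chrX:154397070-154398936, exonic). These 5 genes lie on 5 chromosomes and include both subunits. They exceeded 97.5% or more of the listed peaks by fold enrichment.

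Among the next were RPS3 (18.40-fold, 227 tags, exonic), RPL28 (17.48-fold, 123 tags, exonic) and RPL8 (15.27-fold, 622 tags, exonic). RPS3 lines the channel through which mRNA enters the small subunit, and RPL8 lies near the catalytic centre. Tags and fold enrichment ordered the members differently (Spearman's rho 0.18 over 52 peaks of 1 library), as over all listed peaks (rho 0.07).

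At the low end, RPL3L had 3.50-fold enrichment with 154 tags. RPL3L encodes the paralog of RPL3 found in striated muscle, and its peak was above only 3.64% of the list by fold enrichment. A peak listed under MSRB1 (5.62-fold, 317 tags) lay 657 bp from the other end of RPL3L. RPLP1 had 4.56-fold with 157 tags, RPS27L 4.92-fold with 161 tags and RPL7 5.15-fold with 509 tags. RPL7 thus ranked above 24.6% of the list by fold enrichment but above 91.8% by tags and 89.3% by score. RPL36 was similar, with 678 tags, the most of any member, at 5.25-fold. Its peak spanned 7862 bp, the longest among the members.

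Median enrichment differed little between the subunits. The large subunit median was 9.43-fold (quartiles 6.48 and 12.35, n = 32) and the small subunit median 9.27-fold (quartiles 6.12 and 15.28, n = 20). Their median tags were 162.5 and 159.5. Peaks of at least 10.78-fold were 10 of 32 large subunit and 8 of 20 small subunit peaks, and the exact intervals, 16.1 to 50% and 19.1 to 63.9%, overlap. The difference was not tested, since the peaks come from 1 library.

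Several members have roles beyond their place in the subunit. RPL5, which with RPL11 and an rRNA forms the 5S ribonucleoprotein that signals ribosome stress to MDM2, had 13.90-fold and 187 tags, whereas RPL11 had no peak at its ends. RPS14, whose loss underlies the anaemia of the 5q- syndrome, had 12.77-fold and 120 tags. RPS19, the gene most often mutated in Diamond-Blackfan anaemia, had 6.02-fold and 175 tags, below the median of the list.

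RPL26, which also binds mRNA as a regulator, had 6.69-fold and 168 tags. A stronger peak listed under KRBA2 (14.5-fold, 118 tags) lay 769 bp from the far end of RPL26. RPL22, which is often mutated in tumours with mismatch repair defects, had 5.61-fold and 147 tags, against 34.99-fold for its paralog RPL22L1. RPS6, the substrate of S6 kinase, had 5.38-fold and 71 tags, and its score of 50.43 was just above the lowest score of the list, 50. Among the other paralogs, RPL39L had 9.89-fold and RPL26L1 9.08-fold, against 9.24-fold for RPL39 and 6.69-fold for the peak named for RPL26.

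Nearly every member peak lay at a gene end. The summit was within 1 kb of an end of the gene for 51 of 52 members (98.1%, exact 95% interval 89.7 to 100%), against 60.3% of the 14152 listed peaks whose gene was found in the reference. The exception, RPL26L1, had its summit 4660 bp inside the gene and 25 bp past an annotated inner start. Of the 40 members with an entry in the promoter table, 39 had the summit within 1 kb of an annotated start, and 37 within 300 bp. RPL3, a protein of the catalytic centre, was the exception: its 24 tags and 5.79-fold enrichment lay 996 bp beyond the far end of the gene, 7737 bp from the start. Over all listed peaks with such an entry, 63.7% were within 1 kb of a start. Peaks named for related families also lay mostly at gene ends. The gene-end share was 86.8% for mitochondrial ribosomal protein genes (46 of 53, interval 74.7 to 94.5%). It was 87.0% for translation factor genes (47 of 54, interval 75.1 to 94.6%). Both intervals overlap that of the members. Gene length was not matched in either comparison with all listed peaks. In a gene as short as RPS27 (chr1:153990762-153992155), any summit inside the gene lies within 1 kb of an end.

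By the authors' class, 19 member peaks were upstream (36.5%, interval 23.6 to 51.0%), 19 exonic, 13 intronic (25%, interval 14.0 to 38.9%) and 1 downstream. Over all listed peaks, 19.9% were upstream, 43.5% exonic, 33.9% intronic and 2.70% downstream. How the classes were assigned is not stated, and the gene bounds of the deposited table differ from the current reference at some genes. RPL18 is classed exonic although its summit lay 55 bp before the start used here.

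Summits fell on either side of the start in like numbers. Of the 39 members near a start, 19 summits were upstream, with a median of 106 bp before the start (-106), and 20 downstream, with a median of 98 bp into the gene. The upstream share was 48.7%, against 58.2% of all 7052 listed peaks within 1 kb of a start. The upstream peaks had a median of 9.89-fold and 249 tags, and the downstream peaks 8.23-fold and 104 tags. Over all listed peaks within 1 kb of a start, the medians were 8.46-fold and 289 tags upstream, and 6.88-fold and 180 tags downstream. Across the 39 members, fold enrichment and the position of the summit had a Spearman's rho of -0.46, and across the 7052 listed peaks rho was -0.14. Both describe 1 library.

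The 13 intronic members carried the lowest values of the 3 larger classes, with medians of 6.56-fold and 77 tags, against 10.35-fold and 268 tags for the 19 upstream members and 9.61-fold and 171 tags for the 19 exonic members. Of these 3 classes, the intronic was also the lowest over all listed peaks, with medians of 6.69-fold and 86 tags. All upstream peaks had 7.81-fold and 275 tags, and all exonic peaks 7.03-fold and 176 tags. Among the intronic members, RPLP1 had its summit 299 bp into the gene, RPS6 233 bp, RPS4X 228 bp (5.35-fold) and RPSA 218 bp (6.15-fold). RPS7, with 9.29-fold and 61 tags, had the most distant downstream summit, 478 bp from the start.

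**Figure D2:**
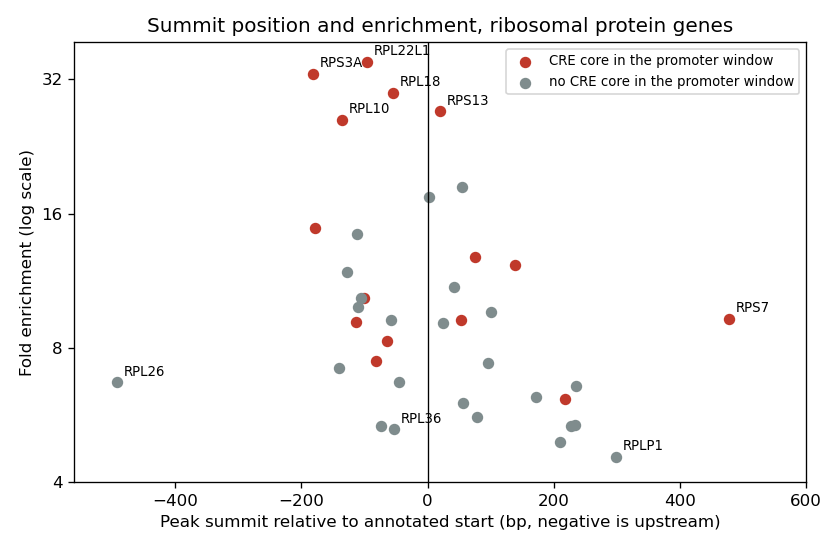
Position of the peak summit relative to the annotated start (bp, negative is upstream) against fold enrichment (log scale) for the 39 members with a start within 1 kb, coloured by whether the promoter window holds a CRE core. The 4 upstream peaks from 25.95-fold upwards and RPS13 all have the core, and the peaks 172 bp or more downstream reach at most 9.29-fold.

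The CRE core was found in the promoters of members about as often as in those of other bound genes. In the window from 250 bases before to 50 after the start, TGACG on either strand occurred in 15 of 39 members (38.5%, interval 23.4 to 55.4%). It occurred in 37.9% of the promoters of all 7052 listed genes with a summit within 1 kb of a start, and in 24.5% of all 34961 promoters of the table. The full palindrome TGACGTCA, which contains the core, was present in RPL18 alone (2.56% of 39 members), against 3.80% of the listed genes and 1.85% of all promoters. The variant TGACGCA, which also contains the core, occurred in 4 members (10.3%), against 4.28% and 2.47%. A match is a run of letters and not a measured site, and no match says only that these letters are not in the window.

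Members with the core had higher fold enrichment than members without it. The 15 with TGACG had a median of 12.27-fold (range 6.15 to 34.99), and 8 of them reached 10.78-fold. The 24 without it had a median of 6.95-fold (range 4.56 to 18.40), with 5 at or above 10.78-fold. Median tags were 182 and 157.5. The same order held over all listed peaks near a start, with medians of 10.14-fold with the core and 6.80-fold without, and 17.14-fold for the 268 with the palindrome. The position of the summit moved with it, since 9 of the 15 members with the core and 10 of the 24 without had their summit upstream. Its part in the difference was not tested.

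In 7 of the 15 members with a core, the nearest one lay within 50 bp of the summit (46.7%), against 47.4% of the 2674 listed promoters with a core. Within 25 bp the shares were 20.0% and 32.5%, and within 100 bp 46.7% and 65.2%. The median distance was 111 bp in the 15 members and 56 bp over all listed promoters with a core. Cores were searched only up to 50 bases after the start, so a summit farther downstream has no searched bases beside it. Among the 15 were RPS7 and RPSA, with summits 478 and 218 bp past the start. How far summit position accounts for the distances was not tested. Summit and core centre coincided at RPL18. They were 3 bp apart at RPS21 (9.16-fold, 397 tags), 10 bp at RPS9 (7.48-fold, 88 tags) and 29 bp at RPL13 (10.35-fold, 410 tags). At RPS13, in contrast, the nearest core lay 181 bp from the summit, and RPS3 and RPL28 had none in the window at 18.40-fold and 17.48-fold.

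Of the other elements searched, the ETS core and the pyrimidine run were more frequent in members than in the listed genes near a start. The ETS core CGGAAG occurred in 28 of 39 members (71.8%, interval 55.1 to 85.0%), against 34.1% of the listed genes near a start and 19.4% of all promoters. The longer CCGGAAGT, which contains CGGAAG, was in 5 members (12.8%, interval 4.3 to 27.4%), against 8.56% and 4.14%. The YY1 word AAGATGG was also in 5 (12.8%), against 7.16% and 5.84%, and for both words the interval holds the share of the listed genes.

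The GC box GGGCGG was in 24 members (61.5%), against 74.8% and 45.0%. TATAAA was in 2 (5.13%), against 4.51% and 11.5%, and the E box CACGTG in 1 (2.56%), against 10.3% and 7.27%. All of these were searched on both strands. A run of 8 or more pyrimidines reaching within 5 bases of the annotated start was present in 31 members (79.5%, interval 63.5 to 90.7%), against 11.2% and 11.5%. Among ribosomal protein genes without a listed gene-end peak, the ETS core was in 7 of 11 promoters (63.6%, interval 30.8 to 89.1%) and the pyrimidine run also in 7 of 11. Among those whose peak carried another name, the ETS core was in 7 of 18 (38.9%) and the pyrimidine run in 13 of 18 (72.2%). The members' promoters had a median GC content of 60.7%, against 66.3% for the listed genes near a start and 58.7% for all promoters.

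**Figure D3:**
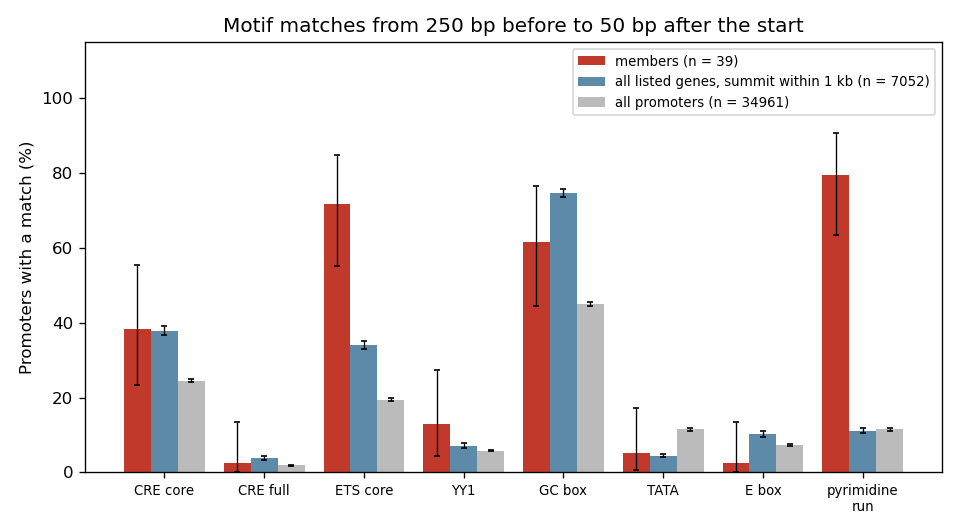
Share of promoters with each motif for the 39 members, for all 7052 listed genes with a summit within 1 kb of a start, and for all 34961 promoters in the table, with exact 95% binomial intervals. Members match the listed genes in the CRE core (38.5% and 37.9%) and exceed them in the ETS core (71.8% and 34.1%) and the pyrimidine run (79.5% and 11.2%).

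Counting by name left out many ribosomal protein genes, since each peak is listed under 1 gene name. The reference holds 88 genes of this kind, 80 encoding core ribosomal proteins (RACK1 included) and 8 paralogs. Of these, 54 (61.4%) had a peak of their own name, about the same share as the 60.9% of all 19970 protein-coding genes. The 54 were the 52 members and 2 that the symbol rule does not take, among them RACK1 (6.99-fold, 41 tags). When any listed peak was counted, 72 of 88 genes had a summit within 1 kb of an end (81.8%, interval 72.2 to 89.2%), against 48.0% of all 19970 protein-coding genes. For core genes the counts were 37 of 47 in the large and 29 of 33 in the small subunit. Expression was not measured, so the comparison with all protein-coding genes includes genes that may be silent in this line.

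Of the 34 genes with no peak of their own name, 20 had such a peak under another name. Genes with a gene-end peak under another name only were 22.7% of the 88, against 10.3% of all protein-coding genes. The latter include genes whose own peak lies elsewhere. The strongest such peak of each of the 20 genes had a median of 13.23-fold (range 5.64 to 42.85), and 11 of the 20 reached 10.78-fold. The strongest gene-end peak reached 10.78-fold at 30.2% of all protein-coding genes with one. Among all cytosolic ribosomal protein genes with one, the share was 41.7%. RPL9 lay 198 bp from a summit listed under LIAS, lipoic acid synthetase, with 203 tags and 42.85-fold enrichment, a fold above that of any member. FAU, which encodes a small subunit protein fused to a ubiquitin-like domain, lay 134 bp from the peak of MRPL49, a mitochondrial ribosomal protein gene (38.08-fold, 418 tags). RPL4 shared a peak with ZWILCH (34.21-fold, 92 tags) and had a second one, of 33.71-fold and 390 tags, at its far end under SNAPC5. RPS28 shared one with the respiratory chain gene NDUFA7 (30.53-fold, 298 tags).

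RPLP0, the base of the stalk that recruits translation factors, lay 163 bp from the peak of the antisense RNA gene PXN-AS1 (14.19-fold, 220 tags). RPL6 lay 43 bp from the peak of PTPN11 (13.97-fold, 503 tags), and RPS2 153 bp from that of RNF151 (18.58-fold, 466 tags). The lowest of the 20 were RPL15 with NKIRAS1 (6.09-fold), RPL7L1 with C6orf226 (6.0-fold) and RPL35 with ARPC5L (5.64-fold). Where strands were known for both genes, 12 of 13 pairs were arranged head to head, with 43 bp (RPL15) to 471 bp (RPL4) between the starts. RPL41 was the exception: the ZC3H10 peak of 26.88-fold lay past its far end. In 15 of the 20 the summit was within 1 kb of the annotated start of the ribosomal protein gene. In all 15 it was upstream of that start, by a median of 141 bp (-141), against 58.2% of all listed peaks near a start. These genes were chosen for having no peak of their own name, and how peaks were named is not given. The upstream position may therefore come with the choice of genes. Which of the neighbours a peak belongs to cannot be told apart from these data.

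**Figure D4:**
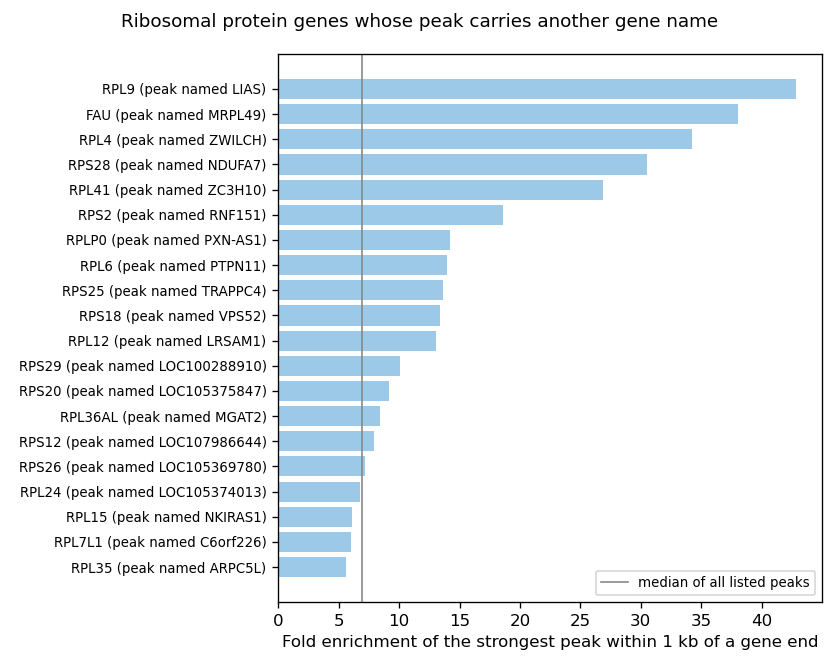
Fold enrichment of the strongest listed peak within 1 kb of an end of the 20 ribosomal protein genes that have no peak of their own name, with the name the peak carries in brackets and the median of all listed peaks as a line. RPL9, FAU, RPL4 and RPS28 exceed 30-fold, and 4 genes fall below the median of 6.97.

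Another 14 of the 88 genes had neither a peak of their own name nor a listed summit within 1 kb of an end. The same was true of 6394 of all 19970 protein-coding genes. The 14 included RPL7A, RPL11, RPL30, RPL32, RPL34, RPL35A, RPL36A, RPL38, RPLP2, RPS15A, RPS23, RPS27A, which encodes a ubiquitin fusion, and the paralog RPL10L. Thus of the 3 stalk genes, RPLP0 and RPLP1 had a peak and RPLP2 had none, although the RPLP2 promoter holds the full CRE palindrome. The CRE core occurred in 5 of the 11 promoters of such genes in the sequence table, and in 11 of the 18 promoters of the genes whose peak carried another name. Because the depth of the library is unknown, the lack of a listed peak does not show a lack of binding.

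Peaks were about as frequent at related gene families. Among mitochondrial ribosomal protein genes, 57 of 77 had a summit within 1 kb of an end (74.0%, interval 62.8 to 83.4%), and among genes of translation initiation and elongation factors 58 of 69 (84.1%, interval 73.3 to 91.8%). These intervals overlap that of the cytosolic genes, and the differences were not tested. The strongest peak at each bound gene had a median of 9.89-fold for cytosolic, 9.62-fold for mitochondrial and 10.47-fold for translation factor genes, against 7.81-fold for all bound protein-coding genes. The peak was listed under another name for 27.8% of bound cytosolic ribosomal protein genes, 19.3% of mitochondrial ones, 19% of translation factor genes and 21.4% of all bound protein-coding genes.

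Of 20 genes other than RPL and RPS genes whose mRNAs carry a terminal oligopyrimidine tract (RACK1 included), 15 had a gene-end peak, with a median of 11.91-fold. EIF4B, an initiation factor, had 25.75-fold and 495 tags, EEF1A1, the main elongation factor, 20.52-fold and 402 tags, and TPT1 18.01-fold and 720 tags. EEF2, EIF3E, HNRNPA1, NACA and VIM had no listed peak at a gene end. Of 26 genes of ribosome assembly and rRNA transcription, 18 had one (69.2%, interval 48.2 to 85.7%), with a median of 9.10-fold. NOLC1, a nucleolar phosphoprotein, reached 69.69-fold with 513 tags, and FBL, the methyltransferase of snoRNA-guided rRNA modification, 23.04-fold with 280 tags. PES1, BOP1 and UBTF were among the 8 without a listed gene-end peak.

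**Figure D5:**
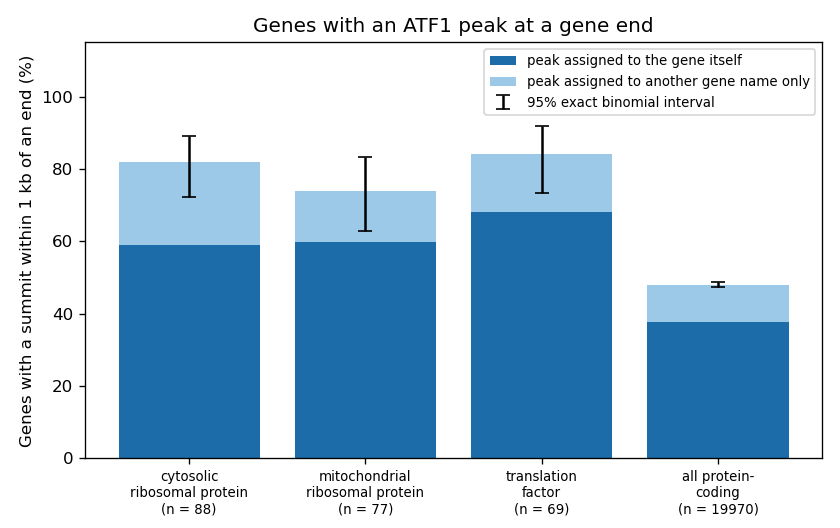
Share of genes with a listed summit within 1 kb of a gene end, split by whether a peak carries the name of the gene itself or another name only, for cytosolic ribosomal protein, mitochondrial ribosomal protein, translation factor and all protein-coding genes, with exact 95% binomial intervals. The first 3 groups lie between 74.0% and 84.1%, above the 48.0% of all protein-coding genes.

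For 7 of the 52 members the summit was also within 1 kb of an end of another protein-coding gene (13.5%, interval 5.6 to 25.8%), as it was for 18.7% of all 8535 listed peaks at a gene end. These were RPL18 (with SPHK2), RPL5 (DIPK1A), RPS27 (RAB13, 12.27-fold), RPL27A (TRIM66, 5.35-fold) and RPL7 (RDH10), and RPS10 and RPL17, whose neighbours are the readthrough genes RPS10-NUDT3 and RPL17-C18orf32. The 45 without such a neighbour had a median of 9.29-fold, against 9.24-fold for the 7. Ribosomal protein genes have many processed pseudogene copies in the genome. No source used here says how reads matching several copies were treated, and their part in the tag counts was not tested; 2 listed peaks carry a name derived from such a copy (RPLP0P2, 6.69-fold, and RPSAP52, 4.6-fold).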

How the data were processed

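The submitters' processing notes name the hg38 build and the tools CASAVA, Bowtie2 and bedtools. Which program called the peaks, with which control and annotation, is given in no source used here. In the deposited table, tags are raw read counts per peak. Its fold enrichment, also as deposited, is a ratio to an unspecified background, with a lowest value of 3, and the basis of the deposited score (lowest value 50) is not stated. Another 1 line without a position was left out.

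Genes were matched by symbol, or by an older name held by 1 gene on the same chromosome, to the RefSeq gene table of GRCh38.p14 (93.9% of 15064 names). A gene end was either bound of the gene, within 1 kb of the summit. Starts, strands and sequences came from the RefSeq promoter table of the same build; the start nearest the summit was used. It holds no entry for 12 members, among them RPL5, RPL7, RPL8, RPL23, RPL23A, RPL37, RPL39L and RPL3L. Intervals are exact: Clopper-Pearson for shares, Poisson for tags and binomial order statistics for medians, all at 95%. Those for tags cover counting error only. Those for shares and medians treat the peaks or genes of 1 library as independent draws. None covers variation between libraries. The total read depth is unknown. No test or p-value was used, with 1 library. Genes named in full were the 10 strongest and 5 weakest members, those far from a gene end or with the CRE palindrome, the stalk and 5S ribonucleoprotein genes, the paralogs, genes with no row of their own and a fixed set of well-known members; others were named after their values were seen. A few genes are not reported here by name. The members and lists were chosen with earlier results of these data known. Alternatives changed the peak threshold, window, summit use, gene set, ranking and motif. The motif search and distances were tested on simulated data. Python 3.11.15, numpy 2.4.6, pandas 2.3.3, scipy 1.17.1 and matplotlib 3.10.9 were used.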

Additional observations from a re-analysis of the deposited data

How the results depend on the processing

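Of 27 alternative values for 7 results, 17 stayed within the interval of the reported value and 10 lay outside it. The share of member peaks at a gene end was 100% for the 6 members among the highest 10% of listed peaks by score, for the 47 core genes and with a 5 kb window, just outside an interval whose upper bound rounds to 100%; it was 92.3% with 500 bp and 96.2% with the gene bounds of the deposited table, a setting chosen after seeing the data. The share of upstream or exonic peaks was 100% among the highest 10% of listed peaks by score. Median fold enrichment was 10.97 for the 35 members at or above the median of the list and 22.84 among the highest 10% of listed peaks by score, rises that these settings build in. The share of reference genes with a gene-end peak was 59.1% (52 of 88) when a peak had to carry the name of the gene. Over all protein-coding genes the count was then 7537 of 19970. The share of reference genes was also 59.1% when only peaks at or above the median fold enrichment counted. That setting was not applied to all protein-coding genes. The median rank of members fell to 49.5% by tags, and was 64.5% by score and 64.1% among gene-end peaks. Members with the CRE palindrome were 2.56%. The core was in 25.6% of members from 100 bases before to 50 after the start, against 15.6% of all promoters. The cause of the change with tags was not tested. No paired analysis was possible because each group has 1 sample. The unknown depth limits every statement on a missing peak.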

Other observations

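Chromosome 19 held 11 of the 52 members (21.2%, interval 11.1 to 34.7%), the most of any chromosome, against 6.87% of all listed peaks. It also holds 13 of the 88 ribosomal protein genes of the reference (14.8%). Their median was 10.67-fold (quartiles 6.75 and 16.2) and 268 tags, against 9.27-fold and 159.5 tags over all members. They include RPL18 (29.84-fold) and RPL28 (17.48-fold), and at the low end RPL36 (5.25-fold). The peak named for the readthrough gene RPL17-C18orf32 reached 19.29-fold with 304 tags and was separate from the peak of RPL17 (6.22-fold, 88 tags); its summit lay 5151 bp from the nearer end of the readthrough gene.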
